A study of Mus musculus with 6 samples.

Results

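The interleukin-1 family of ligands and receptors was examined in mouse keratinocyte lines by RNA-seq. The 10 genes were taken by name from the known family by a rule that uses no measured value, though with earlier results of these data known, and are *Il1a*, *Il1b*, *Il1rn*, *Il1r1*, *Il1r2*, *Il1rap*, *Il1rl1*, *Il18*, *Il18r1* and *Il33*. They are 10 of the 24982 genes listed in the files.

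The libraries came from keratinocytes of neonatal C57BL/6 skin, grown without treatment as a pair of related lines. KSFM-Ca2+ cells were established and kept in a keratinocyte medium low in calcium. DKSFM cells are descendants of KSFM-Ca2+ cells that were adapted to a defined medium with more calcium. Each line had 3 libraries, and the medium, the adaptation and the history of a line cannot be told apart. The study speaks of biological samples and independent experiments in general, but what a replicate was in the RNA-seq, and from which derivation the cells came, is not given in the sources used here, so p-values measure only the spread between these libraries, which may be technical. The files hold the mean read coverage per base of each gene to 1 decimal. Summed over all genes, coverage came to 1601676, 1238411 and 1057750 in KSFM-Ca2+ replicates 1 to 3 and 1174348, 1239438 and 1170675 in DKSFM replicates 1 to 3. The word combined marks the files of KSFM-Ca2+ replicate 3 and of all 3 DKSFM replicates, and its meaning is not given in the sources used here.

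Interleukin-1 alpha, interleukin-1 beta, interleukin-18 and interleukin-33 are cytokines that activate paired receptor chains and, through the adaptor MyD88, NF-kB and MAP kinases. Keratinocytes store interleukin-1 alpha and release it upon injury, while the receptor antagonist encoded by *Il1rn* occupies the interleukin-1 receptor without signalling. Interleukin-1 beta and interleukin-18 are made as precursors that caspase-1 cleaves in inflammasomes, whereas the decoy receptor encoded by *Il1r2* binds ligand and does not signal.

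The lines carried different leading ligands. *Il1a* was the most abundant member in KSFM-Ca2+ cells and fell to near the detection limit in DKSFM cells, whereas *Il18* was the most abundant member in DKSFM cells and was 23.6-fold higher there. The ligand-binding chain of the interleukin-18 receptor (*Il18r1*) rose together with its ligand, and the interleukin-33 receptor (*Il1rl1*) fell. The second chain for interleukin-18, *Il18rap*, was listed at no more than 0.3. The interleukin-1 receptor chains *Il1r1* and *Il1rap* and the antagonist *Il1rn* differed far less. Of the 10 members, 7 passed the filter, which asked for 3 or more libraries with a normalized coverage of 0.5 or above. Among these, 2 were called higher and 3 lower in DKSFM cells at an adjusted p under 0.01 and at least 2-fold (limma, Benjamini-Hochberg over 12409 tested genes). Over all tested genes, 13.2% were called higher and 10.5% lower. The lines did not overlap for 83.3% of all tested genes, so a lack of overlap is common in these libraries. *Il1rl1* and *Il18r1* reached the minimum only in the libraries of the line where they were high, so they had to differ, and their tests are given as descriptions. *Il1a* reached it in all 3 KSFM-Ca2+ libraries and in 1 DKSFM library. In bulk libraries, fewer expressing cells and less RNA per cell cannot be told apart.

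**Figure D1:**
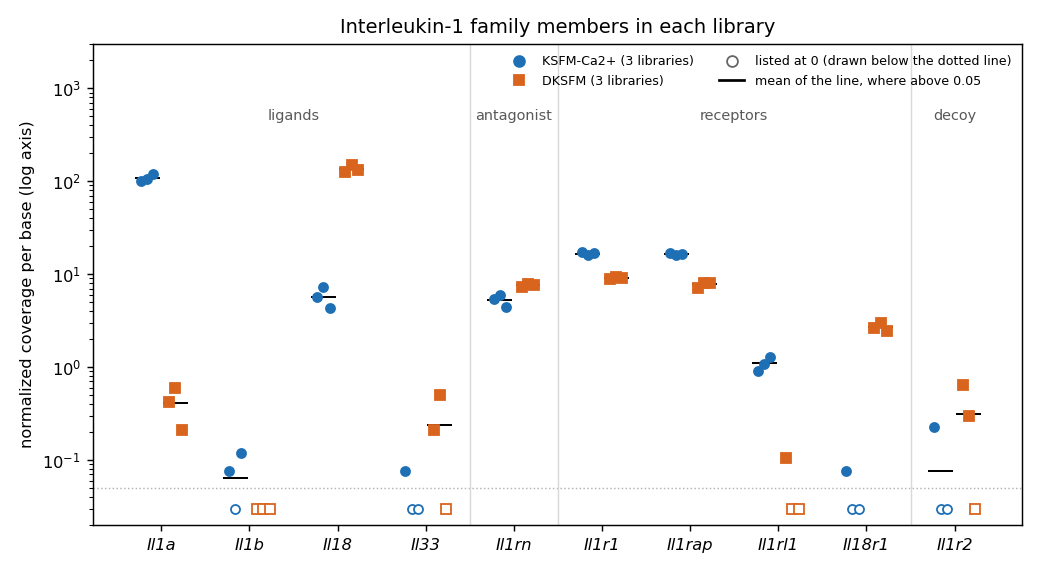
Normalized coverage per base (log axis) of the 10 members, grouped by role, in each of 3 KSFM-Ca2+ libraries (circles) and 3 DKSFM libraries (squares), with bars at the line means above 0.05. Open symbols are libraries listed at 0. *Il1a* is highest in KSFM-Ca2+ cells and *Il18* in DKSFM cells, while *Il1rn*, *Il1r1* and *Il1rap* stay within the same order of magnitude.

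Among the agonist ligands, *Il1a* (chr2:129299610-129309972, minus strand, mm10) encodes interleukin-1 alpha. Its normalized coverage was 100.4, 105 and 120.5 in the KSFM-Ca2+ libraries and 0.425, 0.60 and 0.212 in the DKSFM libraries. Every KSFM-Ca2+ library lay far above every DKSFM library. The mean was 109 ± 10.5 in KSFM-Ca2+ cells and 0.412 ± 0.194 in DKSFM cells (SD, n = 3 each), a log2 difference of -7.80 (95% interval -8.40 to -7.21, limma adjusted p = 4.59e-08). This is a fold of 223 on the log2(value + 0.1) scale, where changes of low values come out too small, and with a pseudocount of 1 the log2 difference was -6.28. The level of *Il1a* was above that of 81.5% of the tested genes in KSFM-Ca2+ cells and of 2.55% in DKSFM cells.

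*Il18* (chr9:50554827-50581840, plus strand) showed the opposite pattern. This gene encodes interleukin-18, a cytokine that keratinocytes and myeloid cells produce constitutively as a precursor. Its normalized coverage was 5.64, 7.22 and 4.37 in the KSFM-Ca2+ libraries and 125, 150.2 and 132 in the DKSFM libraries. All 3 DKSFM libraries were high and the lines did not overlap. The means were 5.74 ± 1.43 and 136 ± 13 (SD, n = 3 each), with a log2 difference of 4.56 (95% interval 4.19 to 4.94, limma adjusted p = 6.57e-08). *Il18* stood above 24.0% of the tested genes in KSFM-Ca2+ cells and above 85.8% in DKSFM cells. *Bco2*, which overlaps *Il18* on the opposite strand and was named after its values were seen, was listed at 0.4, 0.1 and 0.1 in KSFM-Ca2+ cells and at 5, 3.5 and 3.7 in DKSFM cells, and its part in the difference of *Il18* was not tested.

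The other agonist ligands were close to the limit of the files. *Il1b*, which encodes interleukin-1 beta, was listed at 0.1, 0 and 0.1 in KSFM-Ca2+ cells and at 0 in all 3 DKSFM libraries. *Il33*, which encodes a nuclear cytokine of barrier epithelia, was listed at 0.1, 0 and 0 in KSFM-Ca2+ cells and at 0.2, 0.5 and 0 in DKSFM cells. Neither passed the filter, so neither was tested. A listed value of 0.1 corresponds to about 1.60 reads of 85 bases over the longest annotated transcript of *Il1b* and 2.99 reads over that of *Il33*, which is too few to tell a low level from none. None of 12 housekeeping genes was listed at 0 in any library. Their lowest listed value was 15.4 (*Polr2a*), so they tell nothing about detection near the rounding step.

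The ratio of *Il18* to *Il1a* within a library, into which no scaling between libraries enters, was 0.0561, 0.0686 and 0.0362 in KSFM-Ca2+ cells and 294, 250.5 and 622 in DKSFM cells. *Il1a* thus exceeded *Il18* in every KSFM-Ca2+ library and *Il18* exceeded *Il1a* in every DKSFM library. The two-sided exact permutation p was 0.1, the smallest that 3 against 3 libraries can give. As both genes separated the lines in opposite directions, this p was fixed beforehand and adds nothing to the values. Because coverage is per base, such ratios compare genes of different length.

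The start regions of these ligand genes are shown because their levels differed most among the tested ligand members, and in opposite directions. The 150 bases before the RefSeq start (GRCm38.p6), given 5′ to 3′ on the strand of the gene, were chr2:129309973-129310122 (minus strand) for *Il1a* and chr9:50554550-50554699 (plus strand) for *Il18*. Capitals mark a match to the AP-1 consensus TGANTCA.

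Il1a: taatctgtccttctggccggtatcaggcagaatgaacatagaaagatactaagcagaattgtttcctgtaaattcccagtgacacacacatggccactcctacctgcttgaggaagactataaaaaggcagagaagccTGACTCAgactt

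Il18: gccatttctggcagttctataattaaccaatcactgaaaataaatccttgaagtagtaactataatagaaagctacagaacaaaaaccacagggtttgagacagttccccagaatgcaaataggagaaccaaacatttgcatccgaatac

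The AP-1 consensus and the NF-kB consensus were searched on both strands in the 250 bases before each RefSeq start. In *Il1a* the AP-1 letters lay 12 bases before the start, and the *Il18* window held neither motif. All 10 members had at least 1 window, and of their 17 windows 2 held AP-1 (*Il1a* and, 141 bases before a start, *Il1rn*) and 1 held NF-kB (*Il1r1*, 232 bases before a start). Over all 32851 windows of this length, 6.749% held AP-1 and 3.899% held NF-kB. These matches are descriptions of sequence, and binding was not measured.

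The antagonist *Il1rn* was present in both lines at similar levels. Its normalized coverage was 5.41, 6.03 and 4.48 in KSFM-Ca2+ cells and 7.22, 7.79 and 7.63 in DKSFM cells. The DKSFM libraries were all above the KSFM-Ca2+ libraries, but by a small margin. The log2 difference was 0.51 (95% interval 0.25 to 0.77, limma adjusted p = 0.00310), under the 2-fold limit, and *Il1rn* was not called. Its adjusted p ranged from 0.000910 to 0.0169 over the alternatives tried.

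The balance between *Il1a* and its antagonist turned over between the lines. The ratio of *Il1a* to *Il1rn* was 18.6, 17.4 and 26.9 in the KSFM-Ca2+ libraries and 0.0588, 0.0769 and 0.0278 in the DKSFM libraries. Agonist RNA exceeded antagonist RNA in every KSFM-Ca2+ library, and the reverse held in every DKSFM library (two-sided exact permutation p = 0.1, the smallest possible). Here too, the p was fixed because both genes separated the lines in opposite directions.

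**Figure D2:**
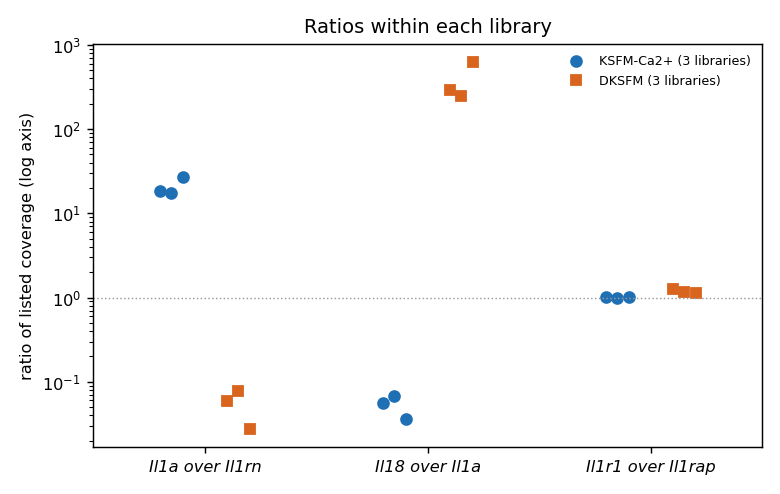
Ratios of listed coverage within each library (log axis) for *Il1a* over *Il1rn*, *Il18* over *Il1a* and *Il1r1* over *Il1rap*, with circles for 3 KSFM-Ca2+ and squares for 3 DKSFM libraries and a dotted line at 1. The ligand ratios lie on opposite sides of 1 in the lines, and the ratio of the receptor chains stays between 0.994 and 1.25.

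The signalling receptor for interleukin-1 consists of the ligand-binding chain encoded by *Il1r1* and the accessory chain encoded by *Il1rap*, which also serves the interleukin-33 and interleukin-36 receptors. *Il1r1* had a normalized coverage of 17.2, 15.9 and 16.8 in KSFM-Ca2+ cells and 8.92, 9.29 and 9.01 in DKSFM cells. *Il1rap* had 16.8, 16.0 and 16.3 in KSFM-Ca2+ cells and 7.11, 8.09 and 8.06 in DKSFM cells. Both chains were lower in every DKSFM library than in any KSFM-Ca2+ library. The log2 difference was -0.87 for *Il1r1* (95% interval -0.999 to -0.734, limma adjusted p = 2.10e-06), which was under 2-fold and not called, and -1.07 for *Il1rap* (95% interval -1.23 to -0.91, limma adjusted p = 1.86e-06), which was called lower. The call of *Il1rap* was close to the fold limit and was lost with a pseudocount of 1 (log2 difference -0.99) and without DKSFM replicate 1 (log2 difference -0.9992).

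The levels of the chains stayed close to each other. *Il1r1* over *Il1rap* was 1.03, 0.994 and 1.03 in KSFM-Ca2+ cells and 1.25, 1.15 and 1.12 in DKSFM cells (two-sided exact permutation p = 0.1, the smallest possible). Receptor RNA of both chains was thus still detected in all 3 DKSFM libraries, where *Il1a* was nearly absent.

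*Il1rl1* encodes the ST2 receptor for interleukin-33, also in a soluble form. It had a normalized coverage of 0.915, 1.09 and 1.30 in KSFM-Ca2+ cells and was listed at 0.1, 0 and 0 in DKSFM cells. It was low in all KSFM-Ca2+ libraries and at or under the rounding step in all DKSFM libraries. The log2 difference was -3.22 (95% interval -4.06 to -2.39, limma adjusted p = 5.51e-05). The mean level in KSFM-Ca2+ cells was 10.6-fold the rounding step of 0.1, a ratio that takes no account of the spread between libraries.

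*Il18r1* encodes the ligand-binding chain of the interleukin-18 receptor. It was listed at 0.1, 0 and 0 in KSFM-Ca2+ cells and had a normalized coverage of 2.65, 3.0 and 2.44 in DKSFM cells. Only the DKSFM libraries were clearly above the rounding step. The log2 difference was 4.53 (95% interval 3.87 to 5.19, limma adjusted p = 1.65e-06). The mean level in DKSFM cells was 27.6-fold the step, again without account of the spread between libraries. With a pseudocount of 1, the log2 differences shrank to 1.85 for *Il18r1* and -1.02 for *Il1rl1*.

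The decoy receptor *Il1r2* was not tested. It was listed at 0.3, 0 and 0 in KSFM-Ca2+ cells and at 0.6, 0.3 and 0 in DKSFM cells, so the lines overlapped near the rounding step.

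Within KSFM-Ca2+ cells the levels ran from *Il1a* to *Il1r1* and *Il1rap*, then *Il18* and *Il1rn*, then *Il1rl1*, with *Il1b*, *Il1r2*, *Il18r1* and *Il33* near 0. The neighbours *Il1r1* and *Il1rap* overlapped between libraries, as did *Il18* and *Il1rn*. Within DKSFM cells the order was *Il18*, *Il1r1*, *Il1rap* and *Il1rn*, *Il18r1*, then *Il1a*, *Il1r2* and *Il33*, with *Il1rl1* and *Il1b* last. There *Il1rap* and *Il1rn* overlapped, and *Il1a*, *Il1r2* and *Il33* could not be ordered.

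The files marked as combined are 1 of KSFM-Ca2+ cells and 3 of DKSFM cells. Over these alone, the log2 difference was -7.93 for *Il1a*, 4.92 for *Il18*, 4.70 for *Il18r1* and -1.06 for *Il1rap*. The spread then comes from DKSFM cells only and the lone KSFM-Ca2+ library is assumed to vary like them, so these are values and no support for the calls. *Il1rl1* did not pass the filter there.

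The remaining genes of the family also divided between the lines. The list held 11 further genes, of which 7 passed the filter, with 4 called higher and 2 lower in DKSFM cells, beside 13.2% higher and 10.5% lower over all tested genes. The median log2 difference of these 7 was 1.67, beside -0.87 over the 7 tested members and -0.00 over all tested genes. The genes are named as listed, and *Il1f6*, *Il1f8* and *Il1f9* encode the interleukin-36 agonists alpha, beta and gamma, *Il1f5* their receptor antagonist and *Il1rl2* their receptor.

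The interleukin-36 receptor *Il1rl2* was listed at 13.7, 9.3 and 8.8 in KSFM-Ca2+ cells and at 0.5, 0.5 and 1.0 in DKSFM cells. It was detected in all libraries and fell in DKSFM cells, with a log2 difference of -3.73 (95% interval -4.29 to -3.17, limma adjusted p = 1.96e-06). The antagonist *Il1f5* was listed at 0.7, 1.0 and 0.5 in KSFM-Ca2+ cells and at 5.3, 8.0 and 6.2 in DKSFM cells. It rose by a log2 difference of 3.11 (95% interval 2.59 to 3.64, limma adjusted p = 3.97e-06), so receptor and antagonist moved in opposite directions. Neither gene overlapped between the lines, as was the case for 83.3% of all tested genes.

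The interleukin-36 agonists did not move together. *Il1f9* was listed at 2.5, 2.0 and 1.5 in KSFM-Ca2+ cells and at 5.9, 7.4 and 4.9 in DKSFM cells, a rise of 1.67 on the log2 scale (limma adjusted p = 8.48e-06). *Il1f6* was listed at 1.9, 1.6 and 0.9 in KSFM-Ca2+ cells and at 0.2, 0.1 and 0.2 in DKSFM cells, and fell by 2.43 on the log2 scale (limma adjusted p = 5.63e-05). *Il1f8* was listed at 0 in all KSFM-Ca2+ libraries and at 1.4, 1.5 and 0.9 in DKSFM cells, and no fold is given against a line listed at 0 (limma adjusted p = 4.86e-06). All were at low coverage, and *Il1f6* and *Il1f8* reached the minimum of the filter only in the line where they were high, so that both had to differ. The size of these differences depended on the pseudocount, and with a pseudocount of 1 the log2 differences were 2.18 for *Il1f5*, -1.004 for *Il1f6*, 1.33 for *Il1f9* and -2.71 for *Il1rl2*.

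*Il18bp*, which encodes the soluble inhibitor of interleukin-18, was listed at 1.8, 1.9 and 0.9 in KSFM-Ca2+ cells and at 1.3, 1.9 and 1.2 in DKSFM cells. The lines overlapped, and the log2 difference was 0.09 (95% interval -0.46 to 0.63, limma adjusted p = 0.742), with a sign that changed under 3 alternatives. The second chain of the interleukin-18 receptor, *Il18rap*, was listed at 0.2, 0.2 and 0.3 in KSFM-Ca2+ cells and at 0.1, 0 and 0 in DKSFM cells, and was not tested. The rise of *Il18r1* was not accompanied by a detectable level of *Il18rap* above that of KSFM-Ca2+ cells. *Sigirr*, an inhibitory receptor of the family, was listed at 0.7, 0.5 and 0.1 in KSFM-Ca2+ cells and at 1.4, 0.8 and 1.9 in DKSFM cells. It reached the minimum of the filter in 1 KSFM-Ca2+ library and in all 3 DKSFM libraries. Its log2 difference was 1.73 (limma adjusted p = 0.00931), and this call was lost under 10 of 15 alternatives, with adjusted p from 0.00295 to 0.0404. *Il1f10*, *Il1rapl1* and *Il1rapl2* were listed at 0 in all libraries.

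**Figure D3:**
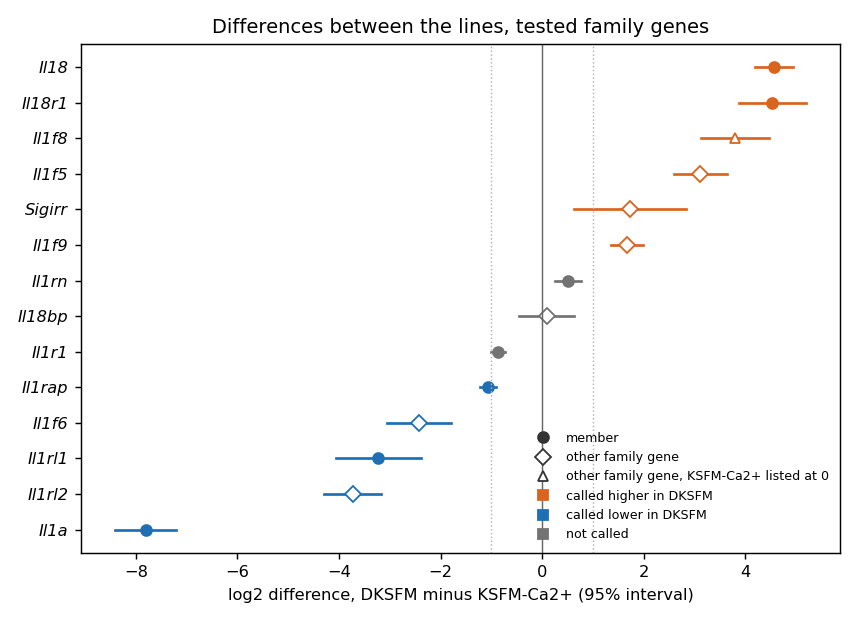
Log2 difference (DKSFM minus KSFM-Ca2+, with 95% interval) of the 14 family genes that passed the filter, with circles for members and open symbols for other family genes, and dotted lines at 2-fold. *Il1a* lies lowest at -7.80 and *Il18* highest at 4.56. The value of *Il1f8* depends on the pseudocount because KSFM-Ca2+ cells were listed at 0.

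Of the receptor genes, 6 lie side by side on chromosome 1 (chr1:40074079-40551705, mm10, all on the plus strand), in the order *Il1r2*, *Il1r1*, *Il1rl2*, *Il1rl1*, *Il18r1* and *Il18rap* over 478 kb, while *Il1rap* lies on chromosome 16. The genes in the middle, *Il1rl2* and *Il1rl1*, were lower in DKSFM cells with log2 differences of -3.73 and -3.22. The next gene, *Il18r1*, starts 136 bases after the annotated end of *Il1rl1* and was higher by 4.53. Adjacent genes on the same strand thus changed in opposite directions. Tested genes within 10 Mb of *Il1rl1* had a median log2 difference of -0.44 (64 genes), and the whole of chromosome 1 had -0.42 (711 genes). The value of *Il1r1*, -0.87, lay beside this median of -0.44, and what part of it the neighbourhood shares was not tested.

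**Figure D4:**
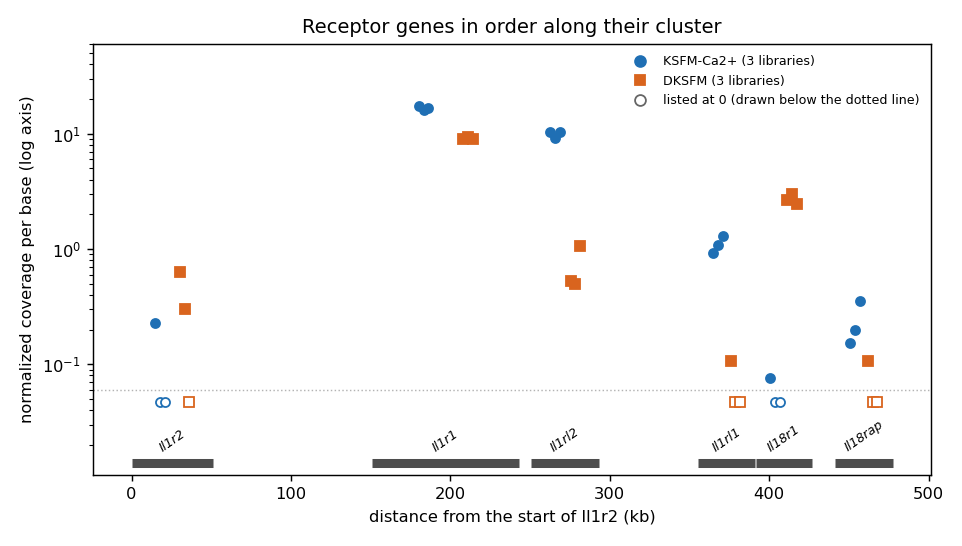
Normalized coverage per base (log axis) of the 6 receptor genes against distance from the start of *Il1r2* (kb), with circles for 3 KSFM-Ca2+ and squares for 3 DKSFM libraries. Grey bars span each gene, and open symbols are libraries listed at 0. KSFM-Ca2+ libraries lie above DKSFM libraries from *Il1r1* to *Il1rl1*, DKSFM libraries lie above at *Il18r1*, and KSFM-Ca2+ libraries again at *Il18rap*, which was listed at no more than 0.3.

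The medians around the other tested members were smaller than their differences or of opposite sign. Within 10 Mb, the median log2 difference was -0.27 around *Il1a* (151 genes), -0.35 around *Il18* (147 genes), 0.22 around *Il1rap* (159 genes) and 0.11 around *Il1rn* (199 genes). *Il18* rose and *Il1rap* fell against the median of their neighbours. The untested members had -0.29 around *Il1b*, -0.47 around *Il1r2* and -0.20 around *Il33*.

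Of 16 listed genes for maturation and release of the ligands, 7 passed the filter, with 2 called higher, 2 lower and 3 not called, beside 13.2% higher and 10.5% lower over all tested genes. The median log2 difference was 0.11. *Casp1*, the protease that cleaves the precursors of interleukin-1 beta and interleukin-18, was listed at 0.3, 0.3 and 0.2 in KSFM-Ca2+ cells and at 11.1, 11.8 and 11.6 in DKSFM cells. *Pycard*, which encodes the inflammasome adaptor ASC, was listed at 0 in all KSFM-Ca2+ libraries and at 22.0, 23.1 and 22.5 in DKSFM cells. Both were high only in DKSFM cells, the line in which *Il18* was high. *Casp1* rose by 5.10 on the log2 scale (95% interval 4.8 to 5.39, limma adjusted p = 1.09e-08; 3.37 with a pseudocount of 1), and *Pycard* was called without a fold (limma adjusted p = 1.30e-09). Both reached the minimum of the filter only in DKSFM cells and had to differ, so these tests add nothing to the listed values.

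*Casp4* and *Casp8*, other caspases that can act in cytokine release, fell by 1.998 and 1.40 on the log2 scale (limma adjusted p = 1.07e-07 and 1.41e-07). The inflammasome sensors of the NLR family on the list were at the limit of the files. *Nlrp3* was listed at 0.1, 0.3 and 0.1 in KSFM-Ca2+ cells and at 0 in DKSFM cells, *Nlrp10* at no more than 0.3 in any library, and *Nlrp1a* and *Nlrp1b* at 0 throughout. *Aim2*, a DNA sensor outside the list, was listed at 1.1, 1.2 and 0.8 in KSFM-Ca2+ cells and at 0, 0 and 0.1 in DKSFM cells, the opposite direction to *Casp1* and *Pycard*, and it reached the minimum of the filter only in KSFM-Ca2+ cells. *Gsdmd*, which encodes the pore protein that caspase-1 cleaves, was listed at 0.3, 0.4 and 0.2 in KSFM-Ca2+ cells and at 0 in all DKSFM libraries. The sensors and *Gsdmd* were named after their values were seen, and no test is given for them. Cleavage and secretion of the proteins were not measured in these libraries.

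All 20 listed genes that carry the signal below the receptors passed the filter, with 3 called higher, 1 lower and 16 not called. This is close to the share over all tested genes, of which 23.7% were called in either direction. The median log2 difference was 0.04. The adaptor *Myd88* differed by 0.21 (adjusted p = 0.0316), the kinase *Irak1* by -0.22 (adjusted p = 1.53e-04) and the ubiquitin ligase *Traf6* by 0.16 (adjusted p = 0.0320), all limma values under 2-fold. The genes called higher were all of the Pellino family of ubiquitin ligases, with log2 differences of 1.07 for *Peli1*, 3.32 for *Peli2* and 3.90 for *Peli3*, the last of which reached the minimum of the filter only in DKSFM cells. *Irak3*, an inhibitory kinase homologue of the pathway, was listed at 3.0, 3.0 and 1.8 in KSFM-Ca2+ cells and at 0.3, 0.2 and 0.5 in DKSFM cells, and fell by 2.56 on the log2 scale (limma adjusted p = 5.48e-05). With a pseudocount of 1 the log2 differences were 2.40 for *Peli2*, 1.98 for *Peli3* and -1.36 for *Irak3*. *Irak3* did not pass the filter in the 4 libraries marked as combined.

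Genes known to respond to interleukin-1, many of which other stimuli also induce, were mostly lower in DKSFM cells. Of 28 listed genes, 26 passed the filter, with 18 called lower, 3 higher and 5 not called, beside 10.5% lower and 13.2% higher over all tested genes. The median log2 difference was -2.51. Of those called, 5 of the lower genes, *Csf3* and *Ccl20* among them, and 1 of the higher genes reached the minimum of the filter in 1 line only and had to differ. The list was assembled with earlier results of these data known, so its direction is no independent evidence. With the pseudocount of 0.1, the differences of largest size were -9.25 for *Csf3*, -8.44 for *Ccl20*, -7.49 for *Ccl2* and -7.36 for *Cxcl1*. That of the inhibitor *Nfkbia* was -2.32. With a pseudocount of 1 the difference of *Csf3* was -7.13, so its size and place depend on the pseudocount. *Csf3*, which encodes a neutrophil growth factor, was listed at 201, 164.5 and 146.8 in KSFM-Ca2+ cells and at 0.2, 0.2 and 0.1 in DKSFM cells. All KSFM-Ca2+ libraries were high and all DKSFM libraries close to the rounding step.

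*Icam1* (2.30), *Bcl3* (1.73) and *Defb4* (2.62), named after their values were seen, were called higher in DKSFM cells. *Defb4*, a gene of low coverage, is the higher gene that reached the minimum of the filter in DKSFM cells only, so its call is no support, and it was lost under 3 of 15 alternatives, with adjusted p from 3.60e-04 to 0.0152.

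**Figure D5:**
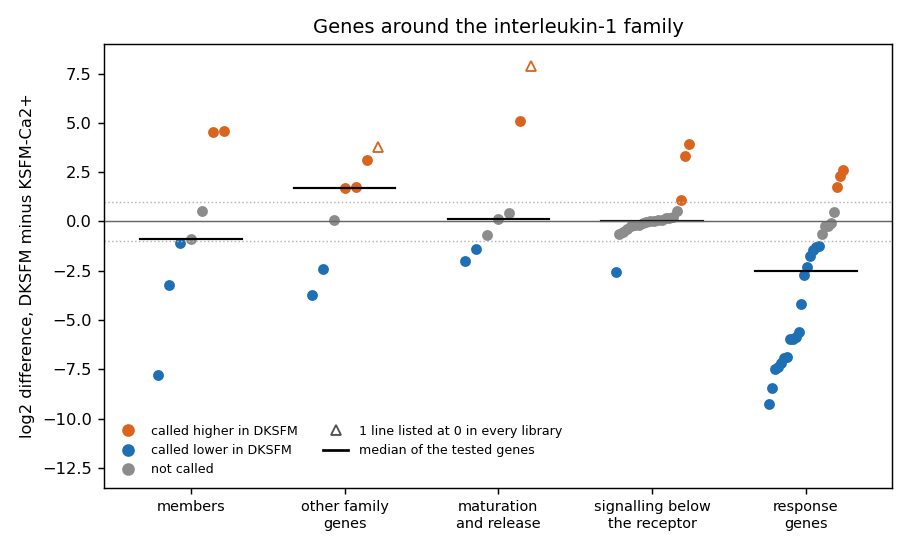
Log2 difference (DKSFM minus KSFM-Ca2+) of each tested gene among the members and in 4 lists of related genes, with bars at the list medians and dotted lines at 2-fold. Open triangles are genes listed at 0 in every library of a line. The response genes reach -9.25, and the median of the signalling genes is 0.04.

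The label of keratinocytes was checked against markers. All 10 keratinocyte markers passed the filter, and their summed normalized coverage was 19761, 20152 and 19827 in KSFM-Ca2+ cells and 45906, 41917 and 46273 in DKSFM cells. *Krt14* was the most abundant, and 3 of the 10 markers were called higher and 1 lower in DKSFM cells, beside 13.2% higher and 10.5% lower over all tested genes.

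Markers of cell types that are other sources of interleukin-1 family RNA in skin were mostly at or near 0. Of 9 macrophage and leukocyte markers, *Adgre1*, *Cd3e* and *Ms4a1* were at 0 in all libraries. The list summed to 10.9, 11.1 and 12.6 in KSFM-Ca2+ cells and to 13.8, 19.1 and 20.7 in DKSFM cells. *Cd68*, a lysosomal protein gene, was the most abundant at 10.8, 11.1 and 12.5 against 13.6, 18.7 and 20.6, and no other marker of the list was listed above 0.2. *Cd68* was not called (log2 difference 0.60, limma adjusted p = 0.00515).

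Of 6 Langerhans and dendritic cell markers, *H2-Aa*, *H2-Ab1*, *Itgax* and *Flt3* were at 0 throughout. The list summed to 1.22, 1.58 and 1.89 in KSFM-Ca2+ cells and to 0, 0.0999 and 0 in DKSFM cells, with *Cd74* the most abundant. Of 7 mast cell markers, *Kit*, *Cpa3*, *Tpsab1* and *Mcpt4* were at 0 throughout, and the list summed to 1.07, 1.29 and 0.590 in KSFM-Ca2+ cells and to 0 in DKSFM cells, with *Cma1* the most abundant. These low sums moved in the direction of *Il1a* and *Il1rl1*, and their part in those differences was not tested.

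Of 8 fibroblast markers, *Col1a1*, *Col1a2*, *Col3a1*, *Pdgfrb*, *Dcn* and *Lum* were at 0 in all libraries. The sum was 8.76, 8.21 and 8.38 in KSFM-Ca2+ cells and 2.44, 2.10 and 2.23 in DKSFM cells, with *Twist2* the most abundant in KSFM-Ca2+ cells and nearly the whole sum in DKSFM cells from *Pdgfra*. *Twist2* was listed at 10, 7.4 and 6 against 0.1, 0 and 0, whereas *Pdgfra* was listed at 1.5, 0.9 and 1.1 against 2.2, 2.1 and 2.1, so these markers moved in opposite directions. Of 6 melanocyte markers, *Dct* and *Tyr* were at 0, and the sum was 3.96, 3.96 and 4.60 against 17.3, 18.7 and 18.3, with *Mitf* the most abundant. Of 5 endothelial markers, *Cdh5* and *Emcn* were at 0, and the sum was 2.82, 3.16 and 3.30 against 8.28, 8.29 and 7.42, with *Pecam1* the most abundant. The melanocyte sum moved with *Mitf* alone, while *Pmel* was listed at 0.5, 0.7 and 0.6 against 0.3, 0.5 and 0.2. The endothelial sum moved mostly with *Pecam1*, while *Kdr* was listed at 0.1, 0.1 and 0 against 0.2, 0.2 and 0.2, and *Tek* at 0.2, 0.4 and 0.2 against 0.2, 0.1 and 0.3. *Mitf* and *Pecam1* were higher in DKSFM cells, as was *Il18*, and their part in its difference was not tested. *Pdgfra*, *Pmel*, *Kdr* and *Tek* were named after their values were seen.

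The genes whose profile over the 6 libraries was most like that of a ligand were named by the smallest root mean square distance between centred log2 profiles. For *Il1a* these were *Arhgdib* (distance 0.259), *Prl8a9* (0.335), *Lpl* (0.493), *Tmem47* (0.516) and *Tnf* (0.521). *Il1a* itself had a low mean in DKSFM cells (0.412), so all these distances depend on the pseudocount of 0.1. *Lpl* and *Tnf* were listed at 0 in all DKSFM libraries and *Tmem47* was close to it. For *Il18* these were *Them5* (0.0747), *Moxd1* (0.135), *Scara5* (0.165), *Pmp22* (0.193) and *Aldh2* (0.195). *Them5* and *Aldh2* had low means in KSFM-Ca2+ cells (0.214 and 0.402), so their distances depend on the pseudocount too. *Prl8a9* belongs to a family of similar genes that may share reads. With 3 libraries a line, likeness mostly means a difference of similar size between the lines.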

How the data were processed

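RNA-seq of 3 KSFM-Ca2+ and 3 DKSFM libraries was used, grouped by the sample labels. Strand-specific libraries of poly(A) RNA had been read from 1 end over 85 bases. STAR alignment to mm10, Salmon quantification over RefSeq genes and a DESeq2 comparison were run by the authors. The deposited signal is the mean coverage per base of each gene, not scaled between libraries. How coverage was computed is not given in the sources used here. No counts were used, so depth per gene is approximate and no counting interval is given.

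Coverage was scaled with trimmed means of M values, unweighted (30% of M and 5% of A values trimmed), and taken as log2(value + 0.1). Genes with at least 0.5 in at least 3 libraries were tested with limma 3.58.1 in R 4.3.3, with an intensity trend and Benjamini-Hochberg adjustment over all tested genes. With libraries left out, at least 2 libraries had to reach this minimum. Python 3.11.15 and matplotlib 3.10.9 were also used. The procedure was tested on simulated data, and the outcome is not given here. GENCODE M21 gave positions and transcript lengths for 24490 genes through their symbols and for 58 through synonyms, and promoter sequences from RefSeq.

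The members and lists were chosen with earlier results of these data known. Named were all members and other family genes, the 4 genes of largest difference among those called in each further pathway list, *Myd88*, *Irak1*, *Traf6*, *Casp1* and *Nfkbia*, the most abundant and the undetected markers of other cell types, and 5 genes like each leading ligand. The housekeeping genes were chosen after the data were seen. Alternatives were other scalings (relative log expression, library totals, quantile), no filter or one that every library must pass, a pseudocount of 0.5 or 1, no trend, a replicate block, an adjusted p of 0.05, no fold limit, each library left out, and only the libraries marked as combined.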

Additional observations from a re-analysis of the deposited data

How the results depend on the processing

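Log2 differences of the 67 tested genes among the members and 4 pathway lists were recomputed under the other scalings, filters, pseudocounts and models and with libraries left out, where they could be tested, and no called gene changed sign. Of 1045 values, 1021 kept their direction and side of the threshold, 9 of genes that were not called changed sign, and 15 were no longer called, of which 10 were for *Sigirr*, 3 for *Defb4* and 2 for *Il1rap*. The changes of sign were with quantile normalization for *Il18bp* (-0.197), *Tab1* (-0.0155), *Tab3* (-0.00623) and *S100a13* (-0.236), in the libraries marked as combined for *Irak4* (0.0524) and *Tab1* (-0.0581), and with a library left out for *Irak4* (-0.0975 to 0.0134) and *Il18bp* (-0.0976 to 0.287), and the cause was not tested. With a filter on every library, 1032 genes were called higher and 955 lower, with 1 member higher and 1 lower. This was because fewer genes were tested, and *Il1a*, *Il1rl1* and *Il18r1* were not among them. Without a fold limit, 4402 genes were called higher and 4606 lower, with 3 members higher and 4 lower, so that *Il1rn* and *Il1r1* were then called too. With each library left out in turn, 1610 to 1704 genes were called higher and 1295 to 1328 lower, with 2 members higher and 2 to 3 lower. The replicate numbers are not said to pair the libraries. Correlations of deviations between same-numbered libraries were -0.00508, 0.0239 and -0.00610, which shows no shared deviation but cannot exclude a pairing. The fit with a replicate block called 1641 genes higher and 1304 lower, with 2 members higher and 3 lower. *Il1b*, *Il1r2* and *Il33* lie near the rounding step of 0.1 and were left out by the filter, and in the fit without a filter 2 members were called higher and 3 lower, none of these genes among them.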
